A study of Mus musculus with 21 samples.

Results

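Transcript levels of 10 genes that shape and clear mitochondria were followed in the hippocampus of adult mice that had been separated from the dam in early life or reared in the standard way. The genes were chosen by name and role: Mfn1, Mfn2 and Opa1 for fusion, Dnm1l, Fis1 and Mff for fission, and Pink1, Bnip3, Bnip3l and Fundc1 for mitophagy. The counts table lists 55487 genes, of which 18146 had counts high enough to be tested, and all 10 genes were among them.

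Mitochondria continually join and divide. Mitofusins tether and fuse the outer membranes and Opa1 fuses the inner membranes, while the dynamin Drp1, encoded by Dnm1l, is drawn to the surface by receptors such as Mff and Fis1 and constricts the organelle. Damaged mitochondria are taken up by autophagosomes, either through the kinase Pink1, which builds up on damaged outer membranes and starts their marking with ubiquitin, or through outer membrane receptors such as Bnip3, Bnip3l (also called Nix) and Fundc1. In neurons these steps set the size of the mitochondria that travel into axons and dendrites and the renewal of those that serve synapses.

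Poly-A RNA was sequenced with 1 library per mouse from the snap-frozen hippocampi of male wild-type C57BL/6 mice that were 10 weeks old. In the maternal separation group (MS, 9 mice), whole nests spent 4 hr a day in a cage without the dam from postnatal day 10 to 17, and most of the nesting material was taken out of the home cages. In the standard rearing group (SR, 12 mice), nests stayed with the dam. Pups of both groups had been balanced over dams after birth, and 3 male littermates of a nest were housed together after weaning. The labels name no nest, but the animal numbers form 7 sets of 3 consecutive numbers, each of 1 rearing condition, which are called A to C (MS) and D to G (SR) here. Littermates are not fully independent samples of a rearing condition, so p-values computed over mice may be too small.

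MS mouse A2 lay farthest from the other libraries in a principal component analysis (PCA) of all 21 and was left out. The study's methods also removed 1 PCA outlier but do not name it, so whether it was A2 is not known. Levels are given in CPM, a gene's share of the library's counts, scaled by TMM. The 5 dentate gyrus markers summed to 117 CPM in A2 and to at least 238.5 CPM in the other 20 mice. Among them, Dsp stood at 0.696 CPM in A2 and at 53.7 to 139 CPM in the other mice. Calb1, at 92.7 CPM in A2, lay within the 64.1 to 111 CPM of the other mice. The summed striatal markers stood at 1980 CPM in A2 against at most 663 CPM elsewhere. Markers of dentate gyrus and of the CA fields were detected in every library that was kept. The total counts were 17276810 to 24052716 in the 8 MS libraries and 18368519 to 26450808 in the 12 SR libraries. In bulk tissue, fewer cells of a type and less RNA per cell cannot be told apart.

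The 10 genes lie on 8 chromosomes in GRCm38 as annotated by GENCODE M21, and all are protein coding. Of the fusion genes, Mfn1 (ENSMUSG00000027668) lies at chr3:32529465-32579239 on the plus strand, Mfn2 (ENSMUSG00000029020) at chr4:147873599-147904704 on the minus strand and Opa1 (ENSMUSG00000038084) at chr16:29579334-29654884 on the plus strand. Of the fission genes, Dnm1l (ENSMUSG00000022789) lies at chr16:16312230-16358959 on the minus strand, Fis1 (ENSMUSG00000019054) at chr5:136953275-136966234 and Mff (ENSMUSG00000026150) at chr1:82724890-82752394, both on the plus strand. The mitophagy genes all lie on the minus strand, Pink1 (ENSMUSG00000028756) at chr4:138313409-138326307, Bnip3 (ENSMUSG00000078566) at chr7:138890836-138909519, Bnip3l (ENSMUSG00000022051) at chr14:66985239-67008877 and Fundc1 (ENSMUSG00000025040) at chrX:17556564-17572325. In the transcripts that GENCODE tags as basic, the exons of the 10 genes cover between 1102 bases in Fis1 and 6284 bases in Opa1.

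Promoter sequences are shown for Opa1, Dnm1l, Fis1 and Pink1, whose transcript levels varied together or in opposite directions from mouse to mouse. They come from RefSeq on GRCm38.p6, are read 5′ to 3′ on the strand of the gene, and hold 300 bases around the start of the gene. The windows are chr16:29579084-29579383 (Opa1, plus strand), chr16:16358982-16359281 (Dnm1l, minus strand), chr5:136953025-136953324 (Fis1, plus strand) and chr4:138326247-138326546 (Pink1, minus strand). The RefSeq start lies 72 bases from that of GENCODE for Dnm1l, 11 bases for Pink1 and at the same base for Opa1 and Fis1. Capitals mark matches to 5 motif cores searched on both strands:
Opa1: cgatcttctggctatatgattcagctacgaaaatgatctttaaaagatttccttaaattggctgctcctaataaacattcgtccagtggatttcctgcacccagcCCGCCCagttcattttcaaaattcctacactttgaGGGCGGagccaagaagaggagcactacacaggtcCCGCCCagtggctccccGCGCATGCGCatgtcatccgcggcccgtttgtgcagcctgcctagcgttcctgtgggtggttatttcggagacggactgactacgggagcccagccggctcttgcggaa
Dnm1l: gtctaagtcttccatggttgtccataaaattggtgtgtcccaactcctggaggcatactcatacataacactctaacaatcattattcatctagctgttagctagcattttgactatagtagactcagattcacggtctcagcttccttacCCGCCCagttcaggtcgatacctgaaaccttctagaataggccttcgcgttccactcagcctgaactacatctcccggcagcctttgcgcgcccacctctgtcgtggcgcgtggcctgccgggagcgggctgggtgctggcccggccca
Fis1: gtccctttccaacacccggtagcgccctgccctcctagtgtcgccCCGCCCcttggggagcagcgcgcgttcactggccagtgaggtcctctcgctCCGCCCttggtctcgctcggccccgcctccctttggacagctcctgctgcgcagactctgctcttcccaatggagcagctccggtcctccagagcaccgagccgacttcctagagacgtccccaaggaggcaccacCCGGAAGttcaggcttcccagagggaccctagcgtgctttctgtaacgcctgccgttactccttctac
Pink1: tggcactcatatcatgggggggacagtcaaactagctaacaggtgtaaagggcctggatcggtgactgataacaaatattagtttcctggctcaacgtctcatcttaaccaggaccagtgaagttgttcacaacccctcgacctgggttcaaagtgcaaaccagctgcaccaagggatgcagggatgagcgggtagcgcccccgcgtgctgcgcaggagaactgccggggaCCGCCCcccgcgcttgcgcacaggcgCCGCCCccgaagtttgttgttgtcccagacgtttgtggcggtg
Promoter entries were found for 9 of the 10 genes, and Bnip3l had none. The entry of Fundc1 starts 318 bases from the GENCODE start, inside the annotated gene. The core GGGCGG of Sp1, a factor of many housekeeping promoters, was in 7 of the 9 windows (Mfn1, Opa1, Dnm1l, Fis1, Mff, Pink1 and Bnip3) and in 35.7% of all 32851 promoters of the same length. The core GCATGCGC of NRF1, a regulator of nuclear genes for mitochondria, was in the Opa1 window alone among the 9, where its 2 matches on opposite strands overlap, and in 2.71% of all promoters. Mfn1 and Fis1 held the ETS core CCGGAAG, which 8.86% of all promoters held. The hypoxia response core ACGTG was in the windows of Mfn2 and of Bnip3, a known target of hypoxia-inducible factor, and in 19.6% of all promoters, and the 2 matches in Bnip3 overlap on opposite strands. The YY1 core AAGATGG was in 6.34% of all promoters and in none of the 9. A match is a run of letters and was not tested as a binding site.

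Levels were first compared between genes per length, as CPM per kb of exon. Pink1 had the highest level, at 110 ± 9.67 CPM per kb (SD, n = 12) in SR mice. The fission genes Fis1, at 62.7 ± 3.41, and Mff, at 61.4 ± 2.53, came next. They were followed by Mfn2 at 51.8 ± 1.59 and the fission gene Dnm1l at 49.0 ± 1.85 CPM per kb. Lower levels were measured for the mitophagy receptors Bnip3, at 31.8 ± 1.98 CPM per kb, and Bnip3l, at 30.2 ± 0.985. Opa1 at 26.0 ± 0.948, Mfn1 at 18.7 ± 1.41 and Fundc1 at 11.1 ± 0.709 CPM per kb were the lowest. The order was the same in MS mice, from 110 ± 10.3 CPM per kb (SD, n = 8) for Pink1 to 12.0 ± 0.721 for Fundc1. In both groups the neighbours Fis1 and Mff, Mfn2 and Dnm1l, and Bnip3 and Bnip3l differed by less than the sum of their SDs, and the other neighbours differed by more. Of the mitofusins, Mfn2 was the more abundant per length, at 51.8 against 18.7 CPM per kb in SR mice. These levels depend on the exon length taken, which counts the exons of the transcripts that GENCODE tags as basic.

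Whether early separation left a trace in these genes was asked with edgeR's quasi-likelihood test over all 18146 genes. None of the 10 genes passed an adjusted p of 0.05 (0 of 10), where 2 genes of the whole table did (0.011%), Spef1 and Gng5, which are named because the count is small. DESeq2 also called 0 of the 10 genes, against 134 of 13871 genes with an adjusted p (0.966%). At an unadjusted p under 0.05 in edgeR, Fis1 and Fundc1 (2 of 10) had higher levels in MS, where 6.62% of all genes were in that class, and Dnm1l (1 of 10) had lower levels, where 4.92% of all genes were. With the sets as random blocks in limma, p was 0.0769 for Fis1, and with counts summed within sets edgeR gave p = 0.0577 for Fundc1, so each of those treatments of the sets left 1 of these 2 genes. Log2 fold changes of MS against SR were above 0 for 5 of the 10 genes and below 0 for the other 5, between -0.09 and 0.13, with a median of -0.0085 beside 0.00084 over all genes tested.

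**Figure D1:**
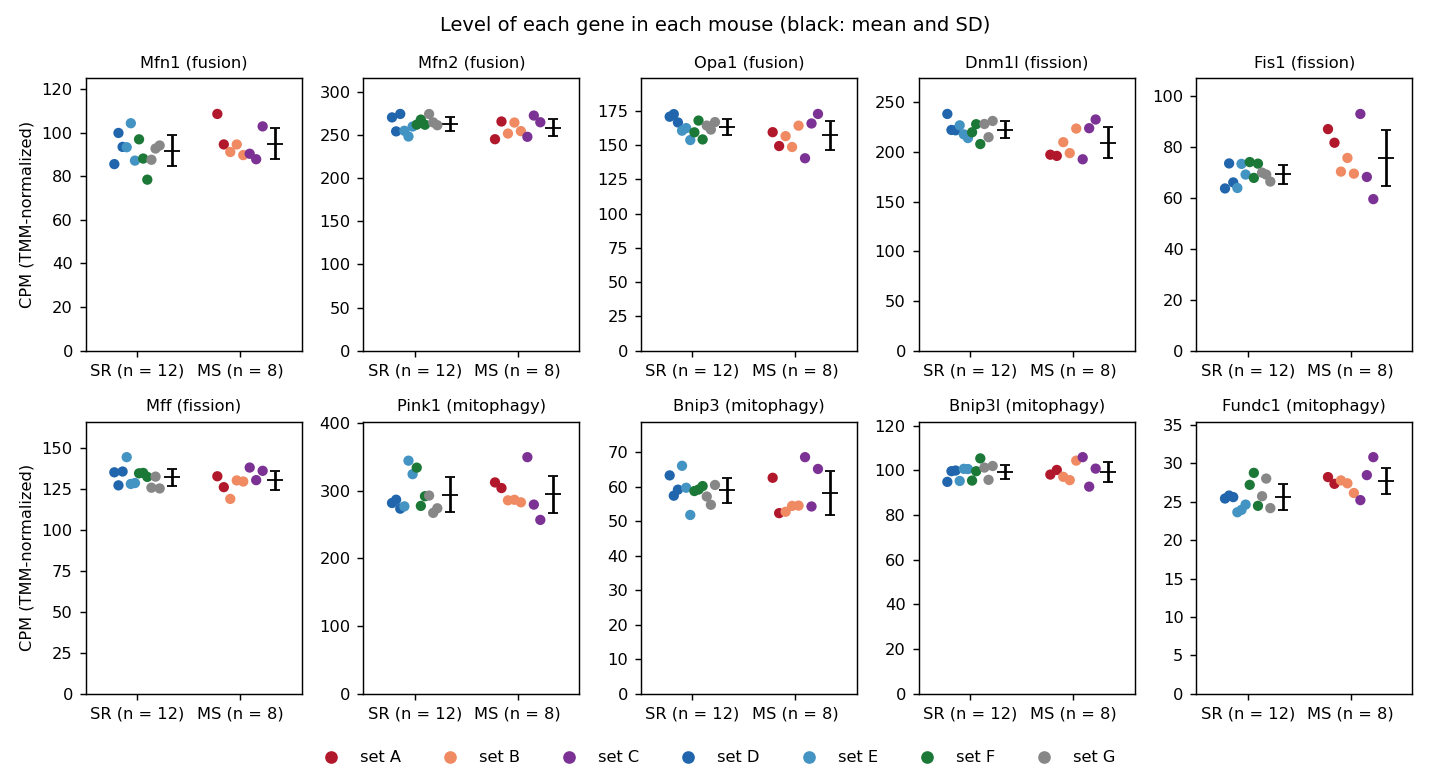
Level of each of the 10 genes in CPM (vertical axis, from 0) in every mouse, with 12 SR mice on the left and 8 MS mice on the right of each panel. Points are mice coloured by set of consecutive animal numbers, and black marks are the mean and SD. The groups overlap for all 10 genes, and the MS mice are spread most widely for Fis1, from 59.4 to 92.8 CPM.

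Among the fusion genes, the 3 log2 fold changes lay between -0.06 and 0.05. Mfn1, the less abundant mitofusin, had a lowest, median and highest level of 87.8, 92.8 and 109 CPM in MS mice and of 78.4, 93.0 and 104 CPM in SR mice. The medians nearly coincided, and 1 MS mouse (A1) was above every SR mouse. The means were 94.9 ± 7.20 CPM (SD, n = 8) and 91.8 ± 6.94 CPM (SD, n = 12), a log2 fold change of 0.05 (SE 0.0478, 95% interval -0.05 to 0.15, edgeR adjusted p = 0.744). Without A1 it was 0.014. For Mfn2, which also tethers mitochondria to the endoplasmic reticulum, the lowest, median and highest levels were 245, 260 and 273 CPM in MS and 248, 262 and 274 CPM in SR. Both ranges were narrow and lay almost on top of each other, with 2 MS mice below every SR mouse and 2 SR mice above every MS mouse. Its log2 fold change was -0.025 (SE 0.0285, 95% interval -0.08 to 0.03, edgeR adjusted p = 0.785).

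Opa1, the inner membrane fusion protein, ranged from 140 to 173 CPM in MS mice with a median of 158 CPM, and from 154 to 172.5 CPM in SR mice with a median of 163 CPM. The MS range enclosed that of SR: 3 MS mice were below every SR mouse and 1 was above them. The mean was 157 ± 10.6 CPM in MS and 163 ± 5.96 CPM in SR, and the log2 fold change of -0.06 (SE 0.0358, 95% interval -0.13 to 0.02) had an edgeR adjusted p of 0.571. Without C1, the lowest MS mouse, it was -0.034.

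Dnm1l, the fission dynamin, had a lowest, median and highest level of 192, 204 and 232 CPM in MS mice and of 208, 222 and 238 CPM in SR mice. The groups overlapped, but 4 of the 8 MS mice were below every SR mouse and 1 SR mouse was above every MS mouse. The 4 low mice came from all 3 MS sets, and the set means of 196, 211 and 216 CPM (A, B and C) were all under the 218 to 227 CPM of the 4 SR sets. The mean was 209 ± 15.4 CPM in MS and 222 ± 8.40 CPM in SR. The log2 fold change was -0.09 (SE 0.0375, 95% interval -0.17 to -0.01), with p = 0.0272 and an adjusted p of 0.366 by edgeR's test, so the difference failed the correction over all genes.

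Fis1, an outer membrane adaptor of fission, stood at 59.4 to 92.8 CPM in MS mice with a median of 72.9 CPM, and at 63.6 to 73.9 CPM in SR mice with a median of 69.0 CPM. Among the MS mice, 4 were above every SR mouse, 1 was below them all, and the highest (C1) and the lowest (C3) belonged to the same set. The spread was 14.5% of the mean in MS and 5.44% in SR, and this difference in spread was not tested. The mean was 75.5 ± 11.0 CPM in MS and 69.1 ± 3.76 CPM in SR, a log2 fold change of 0.13 (SE 0.0609, 95% interval 0.0022 to 0.25) with p = 0.0464 and an adjusted p of 0.426 by edgeR. Set A had the highest mean of the 7 sets, at 84.2 CPM over 2 mice. Without set A the log2 fold change was 0.07 (edgeR adjusted p = 0.790), and without mouse C1 it was 0.08, whereas without C3 it was 0.17 (edgeR adjusted p = 0.180).

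Mff, the main receptor for Drp1 on the outer membrane, had lowest, median and highest levels of 119, 130 and 138 CPM in MS and 125, 132 and 144 CPM in SR. The groups overlapped apart from 1 mouse at either end. Its log2 fold change was -0.02 (SE 0.0321, 95% interval -0.09 to 0.05, edgeR adjusted p = 0.865), and -0.0032 without B1. The 3 fission genes thus had log2 fold changes of different sign, with the dynamin lower, one adaptor higher and the other near 0, none past the adjusted threshold.

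Of the mitophagy genes, Pink1 stood at 257 to 349 CPM in MS mice with a median of 286 CPM and at 267 to 344 CPM in SR mice with a median of 284 CPM. Again C1 was the highest MS mouse and C3 the lowest, and they lay outside the SR range on either side. The mean was 294.5 ± 27.6 CPM in MS and 293.6 ± 25.9 CPM in SR, with a log2 fold change of 0.0045 (SE 0.0548, 95% interval -0.11 to 0.12, edgeR adjusted p = 0.987).

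The receptor Bnip3 had lowest, median and highest levels of 52.3, 54.5 and 68.5 CPM in MS and of 51.8, 59.1 and 66.0 CPM in SR. In MS, 3 mice were at 62 to 69 CPM and the others were at 52.3 to 54.5 CPM, below the SR median. The log2 fold change was -0.022 (SE 0.0520, 95% interval -0.13 to 0.08, edgeR adjusted p = 0.912), and -0.0046 without A3. Its relative Bnip3l, known for clearing mitochondria from maturing red cells, ranged from 92.7 to 106 CPM in MS and from 94.8 to 105 CPM in SR, with medians of 99.1 and 99.7 CPM. The ranges coincided but for 1 MS mouse beyond each end, and the log2 fold change of 0.0025 had the second narrowest interval of the 10 genes, from -0.06 to 0.06 (SE 0.0300, edgeR adjusted p = 0.987).

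Fundc1, a receptor that serves mitophagy under low oxygen and the least abundant of the 10 genes, had lowest, median and highest levels of 25.2, 27.6 and 30.8 CPM in MS and of 23.6, 25.5 and 28.8 CPM in SR. The lower part of the MS range overlapped the upper part of the SR range. Of the 8 MS mice, 7 were above the SR median, and 5 of the 12 SR mice were below every MS mouse. The mean was 27.7 ± 1.66 CPM in MS and 25.6 ± 1.63 CPM in SR, a fold of 1.08. The log2 fold change of 0.11 (SE 0.0441, 95% interval 0.02 to 0.20) had p = 0.0197 and an adjusted p of 0.335 by edgeR, so it too failed the correction. Fundc1 was the gene with the smallest p of the 10 and ranked 1064 of 18146 genes by p. Its counts per mouse, 447 to 737, give a counting error of 4.22% in MS and 4.20% in SR beside a total spread of 6.01% and 6.37%.

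**Figure D2:**
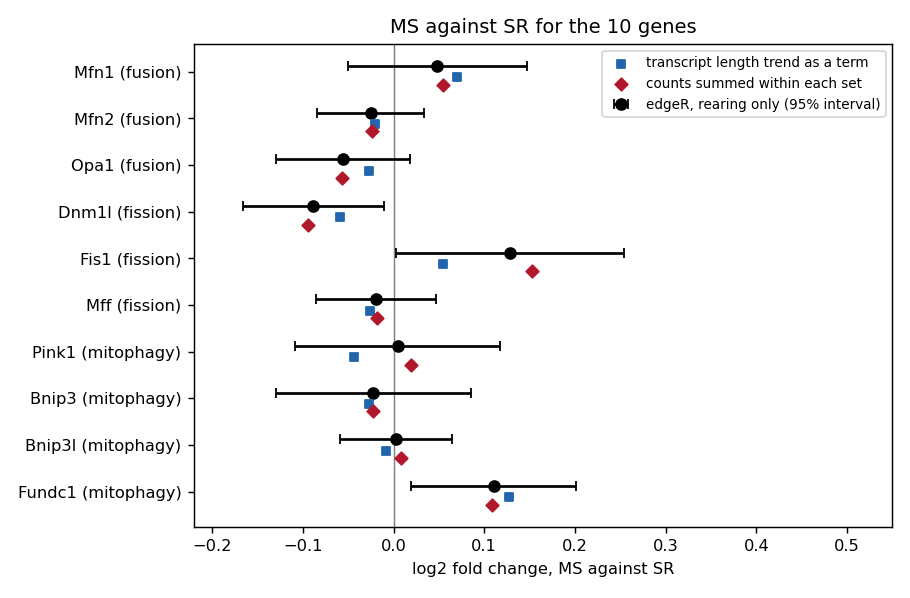
Log2 fold change of MS against SR (horizontal axis) for the 10 genes by edgeR, as black points with 95% intervals, with the length trend of each library as a further term (blue squares) and with counts summed within each set (red diamonds). The intervals of Dnm1l, Fis1 and Fundc1 exclude 0 before adjustment, and with the length trend Fis1 moves from 0.13 to 0.05 and Dnm1l from -0.09 to -0.06.

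A measure of the libraries moved with some of these genes. The length trend of a library, taken here as the slope of its log2 CPM (relative to the mean over mice) on the log2 exon length of all genes tested, ran from -0.068 in C1 to 0.046 in C3 and from -0.022 to 0.020 in SR mice. Its median was -0.0070 in MS and 0.0085 in SR mice. After the mean of each rearing condition was taken out, the log2 CPM of 4 of the 10 genes was related to this slope over 20 mice. Pearson's r was 0.78 for Opa1 (rho 0.58), 0.72 for Dnm1l (rho 0.69), -0.80 for Fis1 (rho -0.64) and -0.62 for Pink1 (rho -0.50), with permutation p of r of 7e-05, 0.00014, 0.00012 and 0.00266 and adjusted p over the 10 genes of at most 0.00665. The slope is itself computed from all 18146 genes, of which 8.40% had an r at least as far from 0 as that of Pink1. The permutation p of rho was 0.0086 for Opa1, 0.00104 for Dnm1l, 0.00298 for Fis1 and 0.0258 for Pink1, of which that of Pink1 missed the threshold after adjustment (0.0644). Without C1 and C3, the 2 mice farthest from the median slope, r was 0.53, 0.55, -0.49 and -0.28, so the relation of Pink1 rested on those mice. The exons of Opa1 and Dnm1l sum to 6284 and 4535 bases and those of Fis1, the shortest of the 10, to 1102 bases. Length did not order all 10 genes by r. Mfn2, at 5072 bases, had r = 0.18, and Bnip3 and Mff, at 1855 and 2148 bases, had r = -0.04 and -0.18. With the slope as a term in edgeR, the log2 fold change was 0.05 for Fis1 (p = 0.206), -0.06 for Dnm1l (p = 0.0649), -0.03 for Opa1 and 0.13 for Fundc1 (p = 0.00765, edgeR adjusted p = 0.284). What gave the libraries their slopes was not tested.

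Of the 5 neuronal markers, 2 had lower levels in MS at an unadjusted p under 0.05 in edgeR, beside 4.92% of all genes tested. The median log2 fold change of the 5 was -0.08. They summed to 4138 to 4762 CPM in MS against 4468 to 5050 CPM in SR. Markers of the choroid plexus varied from 52.9 to 4183 CPM in sum in MS and from 29.1 to 4489 CPM in SR. The median over mice of their mean log2 CPM was 6.00 in MS and 4.07 in SR, and the median log2 fold change was 0.90 for the 7 choroid plexus markers and 0.48 for the 7 striatal markers. The mean level of the choroid plexus markers was also used as a term in edgeR. The log2 fold change was then -0.07 for Dnm1l (p = 0.0996), 0.12 for Fis1 (p = 0.0852) and 0.10 for Fundc1 (p = 0.0415). None of the 54 markers of 10 cell types, regions and blood was called by edgeR, and the part of cell composition in the 10 genes was not otherwise tested.

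The animal numbers fall into a low range (5 MS and 9 SR mice) and a high range (3 MS and 3 SR mice). For Dnm1l the log2 fold change was -0.11 in the low range (edgeR adjusted p = 0.151) and -0.05 in the high range (edgeR adjusted p = 0.951). Fis1 gave 0.15 and 0.11, with edgeR adjusted p of 0.194 and 0.944, and Fundc1 gave 0.10 and 0.12, with edgeR adjusted p of 0.315 and 0.937. These 3 genes kept their sign in both ranges. Bnip3, Mff and Pink1 did not, with -0.11 and 0.13 for Bnip3, with -0.07 and 0.08 for Mff and with -0.02 and 0.09 for Pink1. The test of the difference between ranges gave 0.22 for Bnip3 (p = 0.0407, edgeR adjusted p = 0.567) and 0.14 for Mff (p = 0.0506, edgeR adjusted p = 0.586). For Pink1 it gave 0.11 (p = 0.378, edgeR adjusted p = 0.845), so none of these differences passed. In the low range 230 genes of the whole table were called by edgeR, none of them among the 10, and in the high range 0 were. The median log2 fold change of the 10 was -0.026 in the low and 0.058 in the high range.

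The genes were then compared with each other from mouse to mouse, as log2 CPM with the mean of each rearing condition taken out. Of the 45 pairs, 7 had an adjusted permutation p of Pearson's r under 0.05, 3 of them positive and 4 negative, and 5 pairs had one of Spearman's rho. Among all pairs of tested genes, 1.91% had an r of 0.61 or above and 1.59% one of -0.61 or below, the size of the weakest of the 7, and genes of like length were not compared separately. Opa1 and Dnm1l varied together, with r = 0.85 and rho = 0.82 over 20 mice (permutation p = 1e-05 for both, the smallest that 100000 draws can give, adjusted p = 0.000225 and 0.00045). Fis1 and Pink1 also went together, with r = 0.77 and rho = 0.78 (permutation p = 2e-05 and 0.0001, adjusted p = 0.0003 and 0.0015). Between these pairs the relation was inverse: Dnm1l and Fis1 had r = -0.86 and rho = -0.82 (permutation p = 1e-05 and 4e-05, adjusted p = 0.000225 and 0.0009). The fission dynamin and the fission adaptor thus went opposite ways, and the dynamin went with the inner membrane fusion gene.

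**Figure D3:**
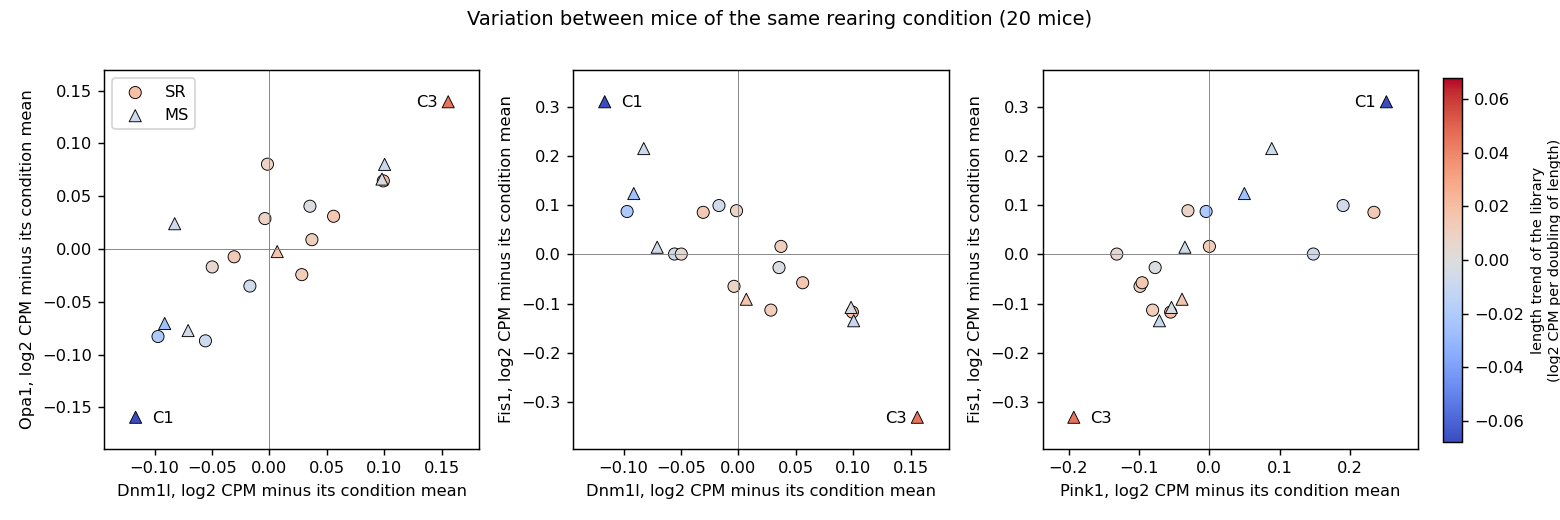
Log2 CPM of 3 pairs of genes in 20 mice, each minus the mean of its rearing condition, for Opa1 against Dnm1l, Fis1 against Dnm1l and Fis1 against Pink1. Circles are SR and triangles MS mice, coloured by the length trend of the library (log2 CPM per doubling of exon length). C1 and C3 lie at opposite ends of every panel, and without them r is 0.77, -0.78 and 0.62.

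Without C1 and C3, r was 0.77 for Opa1 and Dnm1l, 0.62 for Fis1 and Pink1 and -0.78 for Dnm1l and Fis1. With the length trend taken out of each gene, r was 0.66, 0.57 and -0.67. The highest r of the 45 pairs was then that of Mfn1 and Fis1, at 0.73 where it had been 0.11, and Mfn1 and Pink1 were at 0.52 where they had been at 0.15. Opa1 and Fis1 had r = -0.69 and rho = -0.57 (permutation p = 0.00076 and 0.00935), but r was -0.38 without C1 and C3 and -0.17 with the length trend taken out. Opa1 and Pink1 had r = -0.64 and rho = -0.57 (permutation p = 0.00264 and 0.00985), and Dnm1l and Pink1 had r = -0.61 and rho = -0.62 (permutation p = 0.00442 and 0.00482). Both were near -0.3 with the length trend taken out, at -0.31 and -0.30, and at -0.40 and -0.42 without C1 and C3.

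Mff and Bnip3, an adaptor of fission and a receptor of mitophagy, formed a separate pair with r = 0.70 and rho = 0.63 (permutation p = 0.00069 and 0.00381, adjusted p = 0.00684 and 0.0429). Without B1 and E1, the 2 mice farthest from the median of Mff, r was 0.62, and with the length trend taken out it was 0.70, as before. Both Mff and Bnip3 differed in sign between the ranges of animal numbers, as given above, and the share of litter in their relation was not tested. Mfn1 and Mfn2 were not positively related, with r = -0.42 and rho = -0.36 (permutation p = 0.0635 and 0.119). Bnip3 and Bnip3l, which share sequence and role, had r = 0.20 and rho = 0.19 (permutation p = 0.391 and 0.411). Mice of a set may be littermates, so these p-values too may be too small.

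**Figure D4:**
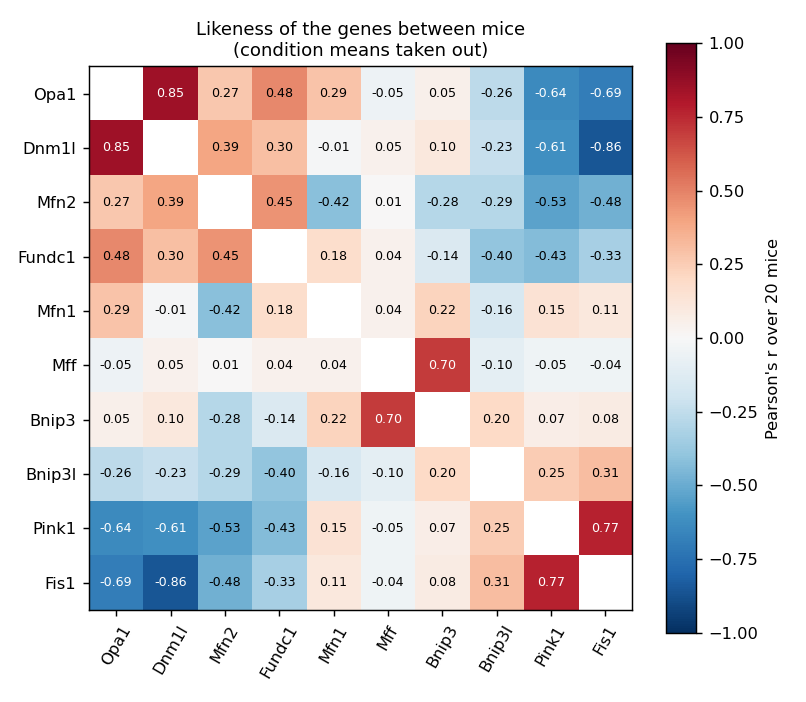
Pearson's r between the log2 CPM of each pair of the 10 genes over 20 mice, with the mean of each rearing condition taken out (colour scale from -1 to 1, value in each cell). Opa1 and Dnm1l (0.85) and Fis1 and Pink1 (0.77) form opposed pairs, and Mff and Bnip3 (0.70) stand apart from them.

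The gene of the whole table whose level went most closely with each of the 10 is given as a description over the same 20 mice, with no test. For the fusion genes it was Cds1 for Mfn1 (r = 0.83), Crim1 for Mfn2 (r = 0.89) and Fam120c for Opa1 (r = 0.90). For the fission genes it was Sgip1 for Dnm1l (r = 0.92), Tma7 for Fis1 (r = 0.91) and Enkd1 for Mff (r = 0.81). For the mitophagy genes it was Klhdc3 for Pink1 (r = 0.88), Slc30a9 for Bnip3 (r = 0.78), A130077B15Rik for Bnip3l (r = 0.80) and Armc9 for Fundc1 (r = 0.79). The highest of 18146 values is large in any table of 20 mice, and edgeR called none of these 10 partners between MS and SR.

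Beyond the 10 genes, 57 others with a role in fusion, fission, mitophagy or mitochondrial transport were listed by function, and 56 of them were tested (Calcoco2, with 42 counts in all, was not). edgeR called 0 of the 56, and DESeq2 called 1, Tomm7. At an unadjusted p under 0.05, 5 were higher in MS (Phb, Mief2, Map1lc3a, Gabarapl2 and Tomm7) and 0 were lower, beside 6.62% and 4.92% of all genes tested. Of the 56, 27 had a log2 fold change above 0 and 29 below, and the median was -0.0019.

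**Figure D5:**
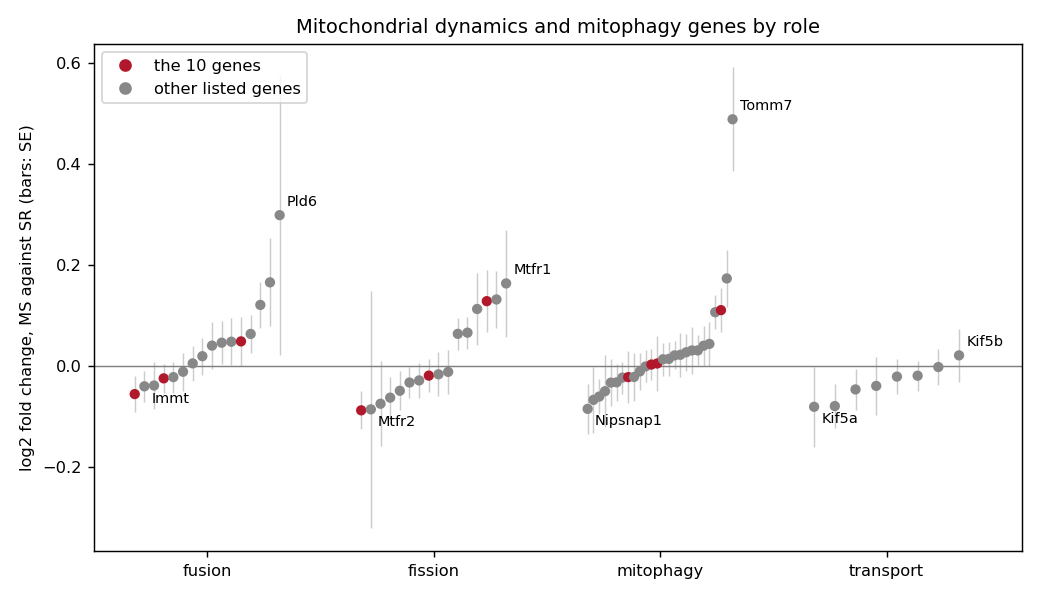
Log2 fold change of MS against SR by edgeR (vertical axis, bars are SE) for the tested genes of each role, with the 10 genes in red and the other listed genes in grey, in order of size within a role. Tomm7 at 0.49 and Pld6 at 0.30 lie highest, and Dnm1l, Mtfr2 and Nipsnap1, each at -0.09, lie lowest.

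Of the 13 other fusion genes, which include the proteases that cut Opa1 and the prohibitins, 9 were above 0 and 4 below, with a median log2 fold change of 0.04. They ran from Immt, which organises the cristae, at -0.04 (edgeR adjusted p = 0.638) to Pld6, a mitochondrial surface lipase, at 0.30 with a level of only 0.693 CPM in MS and 0.554 CPM in SR (edgeR adjusted p = 0.723). The 13 other fission genes had a median of -0.02, with 5 above 0 and 8 below, from Mtfr2 at -0.09 (edgeR adjusted p = 0.926) to Mtfr1 at 0.16 (edgeR adjusted p = 0.574). The 8 genes of mitochondrial transport, which link mitochondria to kinesin motors or anchor them, were below 0 with the exception of Kif5b at 0.02 (edgeR adjusted p = 0.920). The lowest, Kif5a, was at -0.08 (edgeR adjusted p = 0.740), and the median of the 8 was -0.03.

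The 22 other mitophagy genes tested had a median of 0.013, with 12 above 0 and 10 below. The lowest was Nipsnap1, a mitochondrial protein that recruits autophagy receptors, at -0.09 (edgeR adjusted p = 0.5256), and the highest was Tomm7. Tomm7, a small subunit of the outer membrane import pore that holds Pink1 on damaged mitochondria, had lowest, median and highest levels of 5.92, 9.78 and 12.6 CPM in MS and of 5.85, 6.96 and 7.99 CPM in SR. All but 1 of the 8 MS mice were above every SR mouse. Its log2 fold change was 0.49 (SE 0.103, 95% interval 0.27 to 0.70), with p = 8.5e-05 and an adjusted p of 0.111 by edgeR, whereas DESeq2 gave an adjusted p of 0.00778. With the length trend as a term it was 0.41 (edgeR adjusted p = 0.147). Tomm7 was called by edgeR without C2 (adjusted p = 0.0423) and without C3 (adjusted p = 0.00667). It was also called in the low range of animal numbers (log2 fold change 0.65, edgeR adjusted p = 0.0153), and was at 0.17 in the high range (adjusted p = 0.940). Tomm7 was not called with counts summed within sets (0.54, edgeR adjusted p = 0.382) or with sets as random blocks (0.48, limma adjusted p = 0.199). Nor was it called with the choroid plexus term (0.45, edgeR adjusted p = 0.289) or without set A (0.37, edgeR adjusted p = 0.467).

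Of the proteins that coat autophagosomes, Map1lc3a was at 0.17 (edgeR adjusted p = 0.232) and Gabarapl2 at 0.11 (edgeR adjusted p = 0.230), and they are named for their unadjusted p, after their values were seen. The other listed proteins of this kind had smaller log2 fold changes. Map1lc3b was at 0.04 (edgeR adjusted p = 0.743), Gabarap at 0.04 (edgeR adjusted p = 0.748) and Gabarapl1 at 0.02 (edgeR adjusted p = 0.827). Map1lc3a was called by edgeR in the low range of animal numbers, at 0.25 (adjusted p = 0.0183), and was at 0.057 in the high range (adjusted p = 0.954).

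Some reads of these genes could have come from near-identical copies or from overlapping genes. Bnip3l shares 99.2% identity over 663 bases with Bnip3l-ps, whose own counts were 4.19% of those of Bnip3l. Bnip3 shares 98.6% identity over 559 bases with Gm6532 (2.48% of its counts) and 98.3% over 858 bases with AC160336.1 (1.34%), and 504 bases of its exons lie opposite the antisense gene Gm45507, which had 0 counts. Dnm1l shares 243 exon bases with the antisense gene Gm49521, which had 8 counts in all. The strand setting of the counting is not given in the sources used here, so antisense reads could not be told apart. For the other genes the overlaps were shorter or the copies less alike.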

How the data were processed

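Poly-A RNA libraries were made with a directional kit and sequenced as paired-end reads. The authors aligned reads to GRCm38 with STAR 2.7.3a and counted them with featureCounts, and they deposited 1 table of raw counts per Ensembl gene (the annotation is release 102 by the study's methods), not normalized and not filtered. Columns that belong to no sample numbered 0. The labels' rearing condition gave the groups. The library farthest from the median in a PCA of the 500 most variable genes was left out.

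Counts of 8 MS and 12 SR libraries were scaled by TMM, filtered with filterByExpr (minimum count 10) and tested with edgeR 4.0.16 in R 4.3.3 (robust quasi-likelihood test, rearing as the only term, Benjamini-Hochberg adjustment over 18146 genes, threshold 0.05). SE is the log2 fold change divided by the root of F. Log2 CPM used a prior count of 2. Totals per library of 17276810 to 26450808 put every one of the 10 genes at 447 counts or more in each mouse, and counting error was 1.24% to 4.22% of a gene's level. The common biological coefficient of variation was 13.3%. No libraries of a group were duplicates (chi-square of at least 3.58 per degree of freedom). Gene symbols and positions came from GENCODE M21, which held 55141 of the 55487 genes, and similar transcripts were sought with BLAST+ 2.17.0. Scripts were tested on simulated data.

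The 10 genes and the gene lists were chosen with earlier results of these data known. Genes named are the 10 genes, in each list the other gene with the largest and the smallest log2 fold change and any called, and for each of the 10 the gene with the highest r. Genes at an unadjusted p under 0.05 were named in addition, with the other listed proteins that coat autophagosomes. A further listed gene is not reported here and was left out of the lists' counts. The permutation tests of correlation (two-sided, 100000 draws) were added after the values had been seen. Alternatives were all 21 libraries, DESeq2 1.42.0 (its test, and its size factors in edgeR), no filter, a term for the length trend, choroid plexus markers or the range of animal numbers, voom in limma 3.58.1 with sets as random blocks, summed counts of each set, each range alone, each library left out and, added after seeing the data, each set left out.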

Additional observations from a re-analysis of the deposited data

How the results depend on the processing

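No alternative called any of the 10 genes, and their median log2 fold change lay between -0.026 and 0.018, apart from 0.058 in the high range of animal numbers. The lowest adjusted p of any of them was 0.0873, for Dnm1l without set C. Fis1, Dnm1l, Fundc1, Mfn1, Mfn2 and Opa1 kept their sign under all 38 alternatives, and 35 of the 380 values of the 10 genes changed sign. Of these, Bnip3l was at -0.0045 with all 21 libraries, -0.0065 with no filter, -0.0018 with the range of animal numbers, -0.0085 with the length trend and -0.012 with choroid plexus markers. Pink1 was at -0.0036 with no filter, -0.043 with the length trend and -0.023 in the low range, and in the high range Mff was at 0.079 and Bnip3 at 0.13. When a library or a set was left out, Pink1 ran from -0.035 to 0.040, Bnip3l from -0.012 to 0.016, Mff from -0.051 to 0.0052 and Bnip3 from -0.093 to 0.036. The count of genes called over the whole table, 2, was 1 with all 21 libraries or no filter, 134 with DESeq2, 230 in the low range, and 0 in the high range and with summed sets, the length trend or choroid plexus markers. It ran from 0 to 340 when a library or a set was left out (109 without C2 or without C3, and 340 without set C). Of the other listed genes, DESeq2 called 1, 2 were called in the low range (Tomm7 and Map1lc3a), and 0 to 3 were called when a library or a set was left out. The 3 without set C were Tomm7, Map1lc3a and Nipsnap1. The cause of these changes was not tested.

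No paired analysis was possible because the replicate numbers of MS and SR mice only follow the order of the samples. Depth limits Fundc1 most, where counting error was 4.22% in MS beside a spread of 6.01%. For the other 9 genes it was at most 2.93%.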
